A study of Drosophila melanogaster with 9 samples.

Results

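The iron carrier and storage genes of the fly, namely the transferrins Tsf1, Tsf2 and Tsf3, the ferritin chains Fer1HCH, Fer2LCH and Fer3HCH, and the metal transporter gene Mvl, were followed in 9 RNA sequencing libraries of adult Drosophila melanogaster. The 7 genes were taken by symbol, and their 25 RefSeq transcripts were summed per gene, out of 31838 transcripts and 15413 genes or unmatched entries in the count table. Of the 7 genes, 6 passed the filter on low counts and Fer3HCH did not. The series asks what overexpression of Dube3a does to brain transcripts. Dube3a, listed as Ube3a, is a ubiquitin ligase gene homologous to human UBE3A.

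There were 3 libraries of each of 3 genotypes. In the glial line, repo-GAL4 drove UAS-Dube3a in glia (repo>Dube3a). In the neuronal line, elav-GAL4 drove the same transgene in neurons (elav>Dube3a; the library labels carry the driver name C155). The control carried UAS-Dube3a with no driver, and its library labels carry w in the place of a driver name. The transgene, labelled Das45, was thus common to all flies. No driver was sequenced without the transgene, so an effect of a driver, its insertion or a line's genetic background cannot be told apart from one of Dube3a. Flies were raised at 25 °C and were 3 to 5 days old. The labels call the material dissected whole brain, while the design text speaks of pooled heads. They do not say whether replicates were separate crosses, so p-values refer to the spread among these samples.

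Iron in insects is carried in the haemolymph by transferrin and is stored, and also moved between cells, by a secreted ferritin that is assembled from heavy and light chains in the secretory pathway. The heavy chain oxidises iron and the light chain helps to lay down the mineral core. In flies the gut is a main site of iron storage and the fat body of transferrin production, and glia also hold ferritin.

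Totals ranged from 35550949 counts in control library 2 to 60322417 in glial library 1. Ube3a averaged 209 ± 17.5 CPM (counts per 1000000, with each library's total multiplied by its TMM scaling factor) in the glial line, 70.4 ± 7.95 in the neuronal line and 34.6 ± 4.58 in the control (SD, n = 3 each). Neuronal markers summed to 2411 to 3745 CPM over the libraries and glial markers to 2028 to 3817 CPM. Eye markers summed to 47080 to 66809 CPM and muscle markers to 9516 to 16939 CPM, so genes that mark tissue outside the brain were read in every library. Digestive enzyme genes of the gut varied within each genotype, summing to 3124 to 71857 CPM in glial, 12452 to 76412 CPM in neuronal and 3127 to 73602 CPM in control libraries. In glial against control, 57.4% of calls over all genes were in the higher direction with TMM scaling and 44.8% with scaling by library totals, where the median log2 fold change was -0.10. In glial against neuronal these shares were 54.7% and 39.1%, with a median of -0.15 by library totals, and in neuronal against control 43.2% and 61.4%.

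Tsf1 was the member that changed most in the glial line. Among the 6 tested genes it alone passed with edgeR in the glial line against the control, where it was 3.20-fold higher, and in the glial line against the neuronal line, where it was 2.77-fold higher. In the neuronal line against the control no member passed. Fer1HCH and Mvl were higher in every glial library than in any other library after TMM scaling, by 1.21-fold to 1.36-fold, without passing in edgeR. With DESeq2 Fer1HCH passed as well against the control (adjusted p = 0.0209) and against the neuronal line (0.0356). Calls were made at a Benjamini-Hochberg adjusted p under 0.05 in edgeR's quasi-likelihood test over 11430 genes.

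Tsf1 (CG6186, chromosome X) encodes the abundant haemolymph transferrin, which carries iron between tissues and withholds it during infection. It had 883, 653 and 962 CPM in glial libraries 1, 2 and 3, 210, 353 and 340 CPM in the neuronal libraries, and 284, 309 and 188 CPM in the control libraries. All 3 glial libraries thus lay above all 6 others, and the neuronal and control libraries overlapped. Against the control, Tsf1 rose in the glial line by 1.68 ± 0.27 (log2 fold change ± SE, adjusted p = 0.01). Over 17 alternative settings this value ran between 1.48 and 1.80 and its adjusted p between 1.16e-08 and 0.046.

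The difference between the driver lines was 1.47 ± 0.27 for glial against neuronal (adjusted p = 0.02). That call was lost without glial library 3 (1.34, adjusted p = 0.0768), neuronal library 1 (1.27, 0.067) or neuronal library 3 (1.56, 0.0596). In the neuronal line against the control Tsf1 gave 0.21 ± 0.26 (adjusted p = 0.79), and the sign turned with the gut level as a covariate (-0.01). Both comparisons with the control use the same 3 control libraries.

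**Figure D1:**
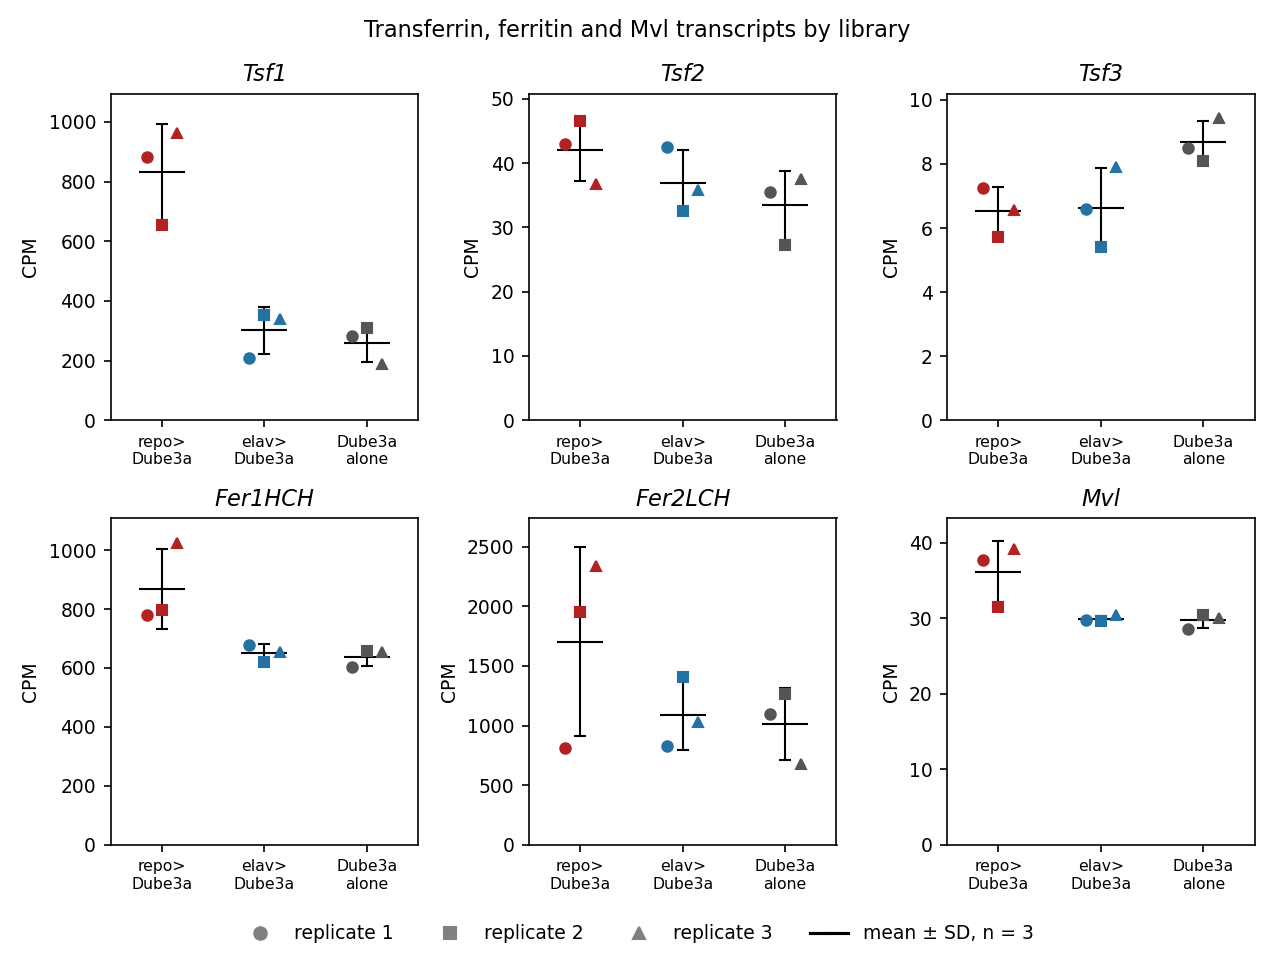
CPM of 6 iron genes in each library (vertical axis, linear from 0) for the glial, neuronal and control genotypes (horizontal axis); markers show the replicates and bars the mean ± SD of 3 libraries. Tsf1 lies between 653 and 962 CPM in the glial libraries and between 188 and 353 CPM in the other 6, and Fer2LCH spreads widely within each genotype.

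Tsf2 (CG10620, chromosome arm 3L) encodes melanotransferrin, a membrane-anchored transferrin that is needed for septate junctions between epithelial cells. It had 42.9, 46.5 and 36.8 CPM in the glial libraries, 42.5, 32.6 and 35.8 CPM in the neuronal libraries, and 35.5, 27.3 and 37.5 CPM in the control libraries. The 3 genotypes overlapped. Tsf2 gave 0.33 ± 0.16 in glial against control (adjusted p = 0.29), 0.15 ± 0.16 in neuronal against control (0.75) and 0.19 ± 0.16 in glial against neuronal (0.63).

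Tsf3 (CG3666, chromosome arm 2R), another member of the transferrin family, was the lowest of the tested genes, with 203 to 476 counts per library. It had 7.26, 5.73 and 6.56 CPM in the glial libraries, 6.59, 5.40 and 7.91 CPM in the neuronal libraries, and 8.49, 8.10 and 9.42 CPM in the control libraries. Both driver lines lay below the control in every library after TMM scaling, but not after scaling by library totals. The test gave -0.41 ± 0.18 in glial against control (adjusted p = 0.24) and -0.39 ± 0.18 in neuronal against control (0.40). Glial against neuronal gave -0.03 ± 0.18 (adjusted p = 0.97), and its sign turned without glial library 2 or neuronal library 3. Of its exon bases 169 (7.1%) overlap CG15706 on the opposite strand, and reads from that stretch cannot be assigned, since the handling of strand is not given in the sources used here.

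Fer1HCH (CG2216, chromosome arm 3R) encodes the ferritin heavy chain. It had 781, 797 and 1025 CPM in the glial libraries, 679, 619 and 655 CPM in the neuronal libraries, and 602, 657 and 655 CPM in the control libraries. The glial libraries were the 3 highest, and the other 6 lay within a narrow band. By library totals the glial libraries still exceeded the control libraries but overlapped the neuronal ones. Fer1HCH gave 0.44 ± 0.15 in glial against control (adjusted p = 0.14) and 0.41 ± 0.15 in glial against neuronal (0.18), which did not pass in edgeR. With DESeq2 both passed (0.44, adjusted p = 0.0209, and 0.42, 0.0356). Neuronal against control gave 0.03 ± 0.15 (adjusted p = 0.96), with a sign that turned without control library 1 or neuronal library 1 and with single transcripts.

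Fer2LCH (CG1469, chromosome arm 3R) encodes the ferritin light chain and lies on the strand opposite to Fer1HCH. The genes share 118 exon bases, which are 5.0% of Fer1HCH and 7.2% of Fer2LCH, so reads from that stretch may have been counted for either. Fer2LCH had 814, 1951 and 2341 CPM in the glial libraries, 827, 1410 and 1030 CPM in the neuronal libraries, and 1100, 1262 and 676 CPM in the control libraries. Glial library 1 lay below 5 of the 6 neuronal and control libraries, while glial libraries 2 and 3 were the 2 highest of all. The gene gave 0.75 ± 0.40 in glial against control (adjusted p = 0.34), 0.10 ± 0.39 in neuronal against control (0.94) and 0.64 ± 0.40 in glial against neuronal (0.45). Without glial library 1 the glial value was 1.09 against the control and 0.98 against the neuronal line, and without glial library 3 it was 0.44 and 0.34, none of them past the threshold. Without control library 3 or neuronal library 2 the neuronal value turned to -0.12.

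Per kilobase of exon the light chain was above the heavy chain in every library, but their proportion was not fixed. The length used was the union of a gene's annotated exons, 2.376 kb for Fer1HCH and 1.648 kb for Fer2LCH, not that of a single transcript. The size of the ratio depends on that choice. In CPM without length the chains were close in glial library 1 (light 814, heavy 781) and control library 3 (676 and 655). Fer1HCH had 329, 335 and 431 CPM per kb in the glial libraries, 286, 260 and 276 in the neuronal libraries, and 253, 277 and 276 in the control libraries. Fer2LCH had 494, 1184 and 1421 CPM per kb in the glial libraries, 502, 855 and 625 in the neuronal libraries, and 668, 766 and 410 in the control libraries. Across the 9 libraries the highest level was 1.70 times the lowest for Fer1HCH and 3.47 times for Fer2LCH. The ratio of light to heavy chain averaged 2.78 ± 1.11 in the glial line, 2.44 ± 0.78 in the neuronal line and 2.30 ± 0.70 in the control (SD, n = 3 each). These ratios overlapped between all 3 genotypes, with 1.5 in glial library 1 and 1.49 in control library 3 as the lowest and 3.53 in glial library 2 as the highest.

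**Figure D2:**
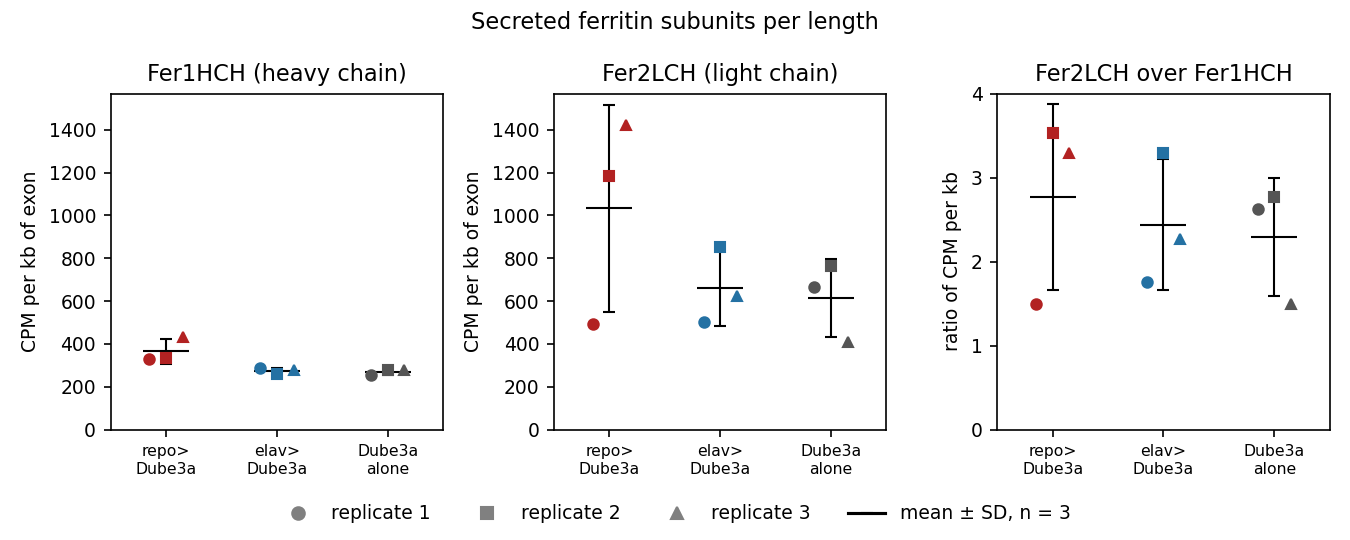
Fer1HCH and Fer2LCH in CPM per kb of exon on a shared scale, and their ratio, in each library by genotype, with the mean ± SD of 3 libraries. The heavy chain stays between 253 and 431 CPM per kb, and the ratio of light to heavy chain runs from 1.49 to 3.53 with no separation of the genotypes.

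Fer3HCH (CG4349, chromosome X) encodes the mitochondrial ferritin heavy chain. Counts were 4, 0 and 0 for the glial line, 2, 0 and 0 for the neuronal line, and 0 in each control library. It was not tested. A count of 0 allows up to 3 counts, which is 0.0723 to 0.097 CPM in the 7 libraries at 0. This limit covers counting error only.

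Mvl (CG3671, chromosome arm 3R) encodes Malvolio, a transporter of iron and manganese of the NRAMP family. It had 37.8, 31.5 and 39.2 CPM in the glial libraries, 29.8, 29.7 and 30.4 CPM in the neuronal libraries, and 28.6, 30.5 and 30.1 CPM in the control libraries. The glial libraries were the 3 highest, glial library 2 by a small margin, and they overlapped the others when scaled by library totals. Mvl gave 0.28 ± 0.11 in glial against control (adjusted p = 0.19), 0.27 ± 0.11 in glial against neuronal (0.23) and 0.01 ± 0.11 in neuronal against control (0.97). The sign of the last value turned with the gut level as a covariate, with single transcripts and without control library 1.

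The members were chosen with earlier results of these data known, so counts among them are a description. In glial against control, 1 of the 6 tested members rose and 0 fell with edgeR. Of all genes tested 2.54% were called higher and 1.88% lower. Without adjustment 3 members passed as higher and 1 as lower, as did 10.6% and 9.38% of all genes. DESeq2 called 2 higher and 0 lower, and of all genes 5.52% and 4.20%. Their median log2 fold change was 0.39, beside 0.01 over all genes tested. In CPM, 3 members were higher in every glial library than in every control library and 1 was lower, while 12.0% of all genes lay apart in the higher direction and 12.9% in the lower.

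In neuronal against control edgeR called 0 members higher and 0 lower. None had an unadjusted p under 0.05, while 6.55% of all genes did as higher and 6.73% as lower. DESeq2 also called 0, and of all genes 1.95% higher and 2.16% lower. With edgeR 0.306% of all genes tested were called higher and 0.402% lower. The median was 0.07, beside 0.00 over all genes. Only Tsf3 lay apart in CPM, in the lower direction, as did 10.5% of all genes, and 0 members lay apart in the higher direction, as did 10.7% of all genes. In glial against neuronal 1 member rose and 0 fell with edgeR, where 2.02% of all genes were called higher and 1.67% lower. Without adjustment 3 members passed as higher and 0 as lower, as did 9.61% and 8.57% of all genes. DESeq2 called 2 and 0, and of all genes 5.09% and 3.78%. The median was 0.34, beside 0.01 over all genes. Here 3 members lay apart in the higher direction and 0 in the lower, beside 11.1% and 11.5% of all genes.

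**Figure D3:**
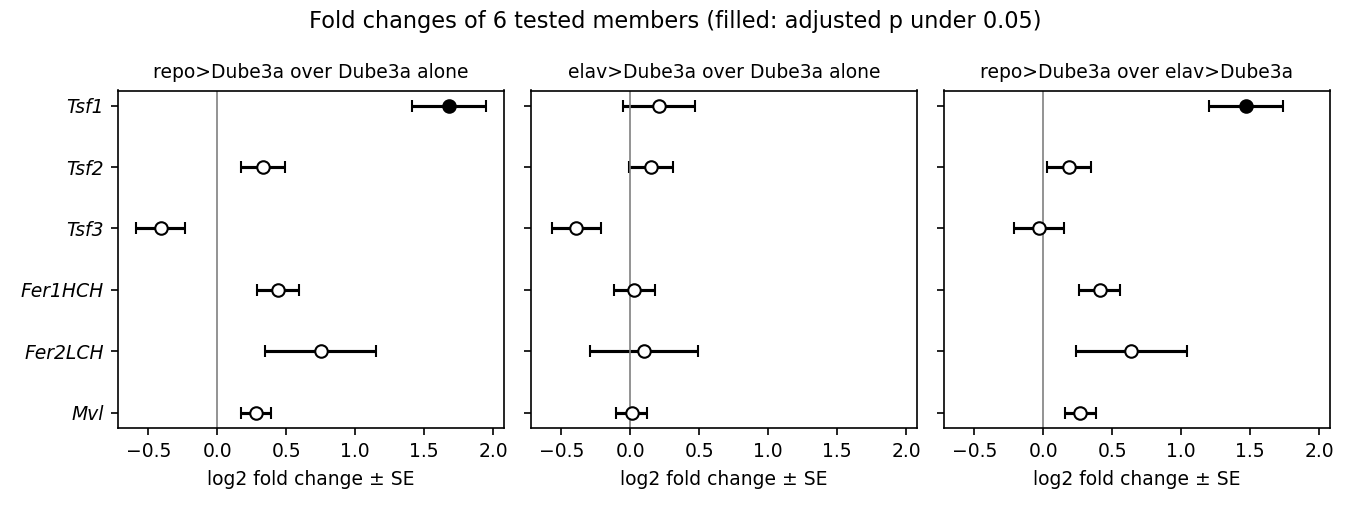
Log2 fold change ± SE (horizontal axis) of the 6 tested iron genes in the 3 comparisons, with filled points at an adjusted p under 0.05. Tsf1 is the filled point, at 1.68 in glial against control and 1.47 in glial against neuronal, and the 6 values of neuronal against control lie between -0.39 and 0.21.

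Set side by side per length, the order of mean levels was the same in the 3 genotypes: Fer2LCH, Fer1HCH, Tsf1, Tsf2, Mvl and Tsf3. Tsf1 averaged 292 ± 56.3 CPM per kb in the glial line, 105 ± 27.8 in the neuronal line and 91.2 ± 22.3 in the control. In the glial line its highest library (337 CPM per kb) exceeded the lowest of Fer1HCH (329), so these neighbours overlapped there. No other neighbours in the order overlapped per length in any genotype. The order depends on the union exon lengths, such as 2.884 kb for Tsf2 and 5.647 kb for Mvl. In CPM without length Tsf2 (36.8 to 46.5) and Mvl (31.5 to 39.2) overlapped in the glial line. They also did in the control (27.3 to 37.5 and 28.6 to 30.5). Among 11338 tested genes with an annotated length, Tsf1 ranked 242 to 300 from the top in the glial libraries, 482 to 735 in the neuronal libraries and 551 to 824 in the control libraries. Fer2LCH ranked 70 to 164, 106 to 153 and 134 to 184 in the glial, neuronal and control libraries. Tsf2 averaged 14.6 ± 1.70, 12.8 ± 1.75 and 11.6 ± 1.86 CPM per kb in these lines, Mvl 6.41 ± 0.723, 5.31 ± 0.0721 and 5.26 ± 0.183, and Tsf3 2.74 ± 0.323, 2.79 ± 0.529 and 3.65 ± 0.284.

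The counts give little hold on isoforms. Each of the 2 Tsf1 transcripts held 49.5% to 50.5% of the gene's counts, each of the 5 of Fer2LCH 18.0% to 20.8% and each of the 6 of Mvl 12.9% to 22.1%. The 9 Fer1HCH transcripts ranged from 6.5% to 14.1%. Some Fer1HCH messages carry an iron responsive element ahead of the coding sequence, through which iron regulatory proteins block translation, and the counts do not separate these from the others.

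Some markers of hemocytes and of the fat body were also higher in the glial line. Of 12 hemocyte markers 11 were tested. In glial against control 4 rose and 0 fell with edgeR (7 and 0 unadjusted, 5 and 0 with DESeq2), beside the shares of all genes given above for each rule. Those 4 were the clotting gene Hml (218 against 97.8 CPM, 1.16 ± 0.17, adjusted p = 0.0067), the scavenger receptor gene Sr-CI (1.10 ± 0.18, 0.012), the matrix gene Ppn (0.72 ± 0.15, 0.031) and the prophenoloxidase gene PPO1 (1.22 ± 0.26, 0.034). The hemocyte list summed to 1314 to 1817 CPM in the glial libraries, 898 to 1066 in the neuronal libraries and 1008 to 1306 in the control libraries. Of 16 fat body markers 14 were tested and 2 rose, the storage protein gene Lsp2 (315 against 12.3 CPM, 4.68 ± 1.05, adjusted p = 0.04) and the glycine methyltransferase gene Gnmt (90.2 against 15.8 CPM, 2.51 ± 0.32, 0.0034). None fell with edgeR, there were 7 higher and 0 lower unadjusted, and DESeq2 called 4 and 0. That list summed to 13252 to 17807 CPM in the glial, 9356 to 10468 in the neuronal and 11563 to 15426 in the control libraries. Most of this sum came from FASN1 and Desat1, which edgeR called in no comparison. FASN1 averaged 8359, 5172 and 6856 CPM in the glial, neuronal and control lines, and Desat1 3686, 2239 and 3765 CPM. In glial against neuronal edgeR called 6 hemocyte markers higher and 0 lower (8 and 0 unadjusted, 8 and 0 with DESeq2). For fat body markers the counts there were 2 and 0 with edgeR, 9 and 0 unadjusted and 7 and 0 with DESeq2. The shares of all genes in that comparison are also given above. No marker of either list was at 0 in all libraries. Their part in the Tsf1 result was not tested. The marker lists, here and below, were chosen with earlier results of these data known, so the counts called are a description.

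Yolk protein genes, made in the female fat body, summed to 38273, 144602 and 153602 CPM in glial libraries 1, 2 and 3, and Tsf1 stood at 883, 653 and 962 CPM there. The yolk genes summed to 54657, 74928 and 68036 CPM in the neuronal libraries and 143697, 90587 and 83355 CPM in the control libraries. The glial and control lines thus overlapped, while every neuronal library lay below every control library. In neuronal against control the median of the 3 yolk genes was -0.68, and edgeR called 0 of them. With the gut level as a covariate Tsf1 gave 1.48 ± 0.20 in glial against control (adjusted p = 0.00512). Glial markers summed to 2028 to 2901 CPM in the glial line, 3024 to 3727 in the neuronal line and 3192 to 3817 in the control. In glial against control 2 of 13 rose and 5 fell with edgeR (2 and 7 unadjusted, 2 and 5 with DESeq2). In glial against neuronal 2 rose and 5 fell with edgeR (2 and 7 unadjusted, 2 and 6 with DESeq2). The shares of all genes are those given above, with edgeR 2.54% higher and 1.88% lower in glial against control. In such bulk RNA fewer cells of a type cannot be told apart from less RNA per cell.

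**Figure D4:**
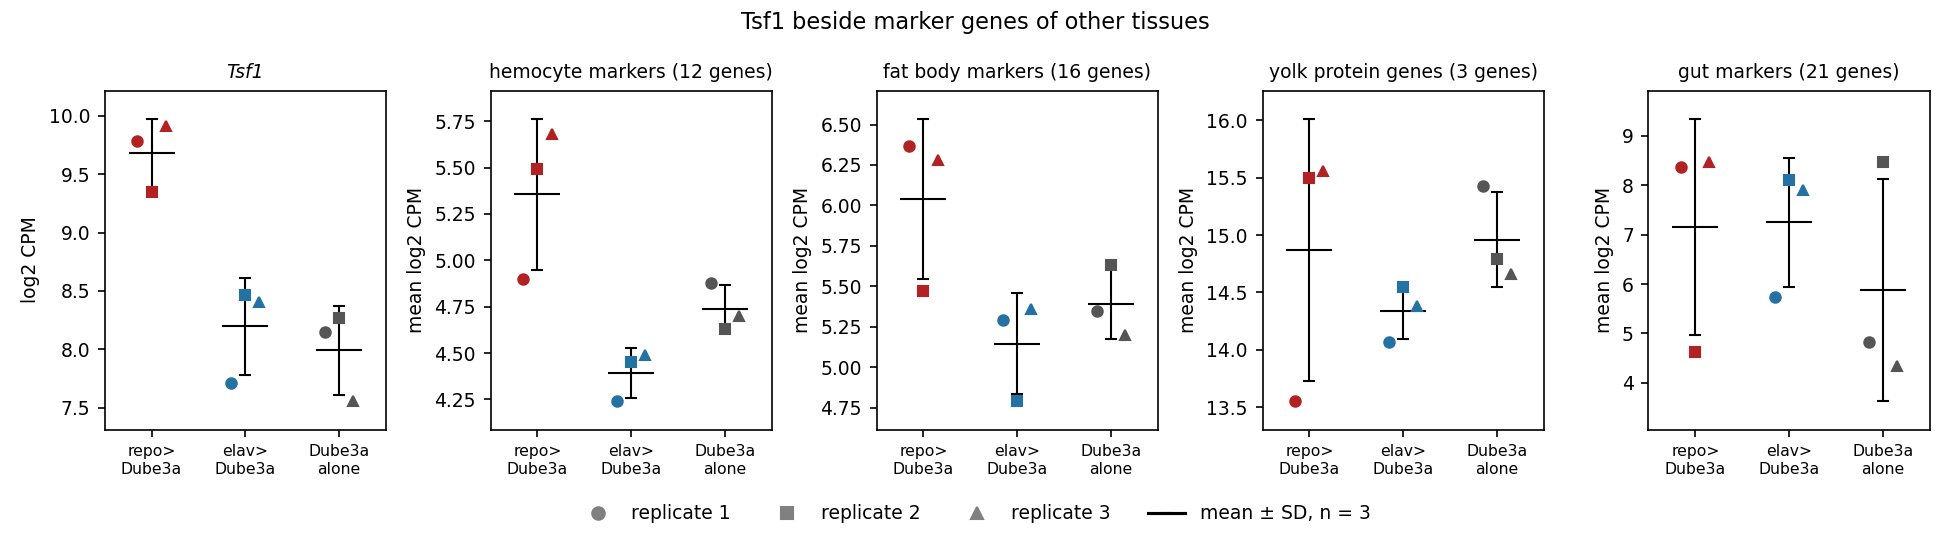
Log2 CPM of Tsf1 and mean log2 CPM of hemocyte, fat body, yolk protein and gut genes (vertical axes, each on its own scale that does not start at 0) in each library by genotype, with the mean ± SD of 3 libraries. The glial libraries are the 3 highest for Tsf1 and, with glial library 1 close to control library 1, for the hemocyte list, while yolk and gut levels range widely within the glial and control genotypes.

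Other genes of metal handling were read from 3 lists written from general knowledge, though with earlier results of these data known. The counts called in each list stand beside the shares of all genes given above. In glial against control these were 2.54% higher and 1.88% lower with edgeR, 10.6% and 9.38% unadjusted, and 5.52% and 4.20% with DESeq2. In glial against neuronal they were 2.02% and 1.67%, 9.61% and 8.57%, and 5.09% and 3.78%. Of 20 genes of wider iron handling found in the table (iron regulatory proteins, iron-sulfur cluster assembly, mitochondrial iron import, ferric reductases and oxidases) 19 were tested. In glial against control 1 rose and 0 fell with edgeR (1 and 1 unadjusted, 1 and 1 with DESeq2), and the list median was -0.01 beside 0.01 over all genes. In glial against neuronal the counts were likewise 1 and 0 with edgeR, 1 and 1 unadjusted and 1 and 1 with DESeq2 (median -0.01). The gene that DESeq2 called lower was the ferredoxin gene Fdx1 (-0.87, adjusted p = 0.033, and -0.99, 0.0107), of whose exon bases 14.3% overlap CG4452 on the opposite strand. Neuronal against control had 0 and 0 with edgeR, unadjusted and with DESeq2 (median -0.03).

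The gene that rose was Irp-1B, a fly homologue of the mammalian iron regulatory protein, related to aconitase. It had 250, 203 and 221 CPM in the glial libraries, 116, 119 and 141 CPM in the neuronal libraries, and 126, 147 and 130 CPM in the control libraries. Every glial library was above all others. Irp-1B rose in the glial line by 0.74 against the control (adjusted p = 0.016) and by 0.84 against the neuronal line (0.01). The call against the control was lost without control library 1 (0.70, adjusted p = 0.0856) or 3 (0.72, 0.0566) and by library totals (0.65, 0.118). The call against the neuronal line was lost without neuronal library 1 (0.79, 0.0558) and by library totals (0.69, 0.0963). Its paralogue Irp-1A gave 0.11 in both (adjusted p = 0.67 and 0.72).

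In neuronal against control the listed genes with the highest mean CPM were the mitochondrial aconitase gene mAcon1 (1563 ± 236 CPM in the neuronal line, 1488 ± 212 in the control, 0.07, adjusted p = 0.94) and the succinate dehydrogenase gene SdhB (166 ± 60.2 and 201 ± 46 CPM, -0.28, 0.76). Of 10 genes of heme synthesis and breakdown 0 rose and 0 fell with edgeR in any comparison. DESeq2 also called 0, and unadjusted there was 1 higher in glial against neuronal and 0 elsewhere. Their medians were 0.07 in glial against control, -0.11 in neuronal against control and 0.13 in glial against neuronal. Alas, which starts heme synthesis, averaged 117 ± 24.2, 118 ± 29.5 and 113 ± 21.1 CPM in the glial, neuronal and control lines. Cox10, a heme-modifying enzyme of mitochondria, averaged 89.8 ± 14.9, 88.3 ± 2.8 and 111 ± 14.6 CPM.

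Of 26 copper and zinc genes 23 were tested. In glial against control 0 rose and 0 fell with edgeR (4 and 3 unadjusted, 2 and 2 with DESeq2, median 0.22), and in neuronal against control 0 and 0 (0 and 1 unadjusted, 0 and 0 with DESeq2, median -0.01). In glial against neuronal 1 rose and 0 fell with edgeR (5 and 3 unadjusted, 2 and 0 with DESeq2, median 0.33). It was the zinc transporter gene ZnT41F, with 12.2, 8.48 and 10.1 CPM in the glial libraries, 5.90, 6.06 and 5.81 in the neuronal libraries, and 7.01, 8.58 and 7.90 in the control libraries. Glial exceeded neuronal by 0.79 (adjusted p = 0.037), and the control lay between, overlapping the glial line. That call held in 5 of 17 alternatives and was lost without any 1 library other than glial library 2. The listed genes with the highest mean CPM were the metallothionein gene MtnA and the zinc transporter gene ZnT63C. ZnT63C averaged 126 ± 22.1, 95.3 ± 13.3 and 107 ± 12.4 CPM in the glial, neuronal and control lines, with adjusted p between 0.23 and 0.72. MtnA averaged 70.3 ± 1.53, 117 ± 48.2 and 166 ± 49.6 CPM and gave -1.24 in glial against control (adjusted p = 0.053).

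**Figure D5:**
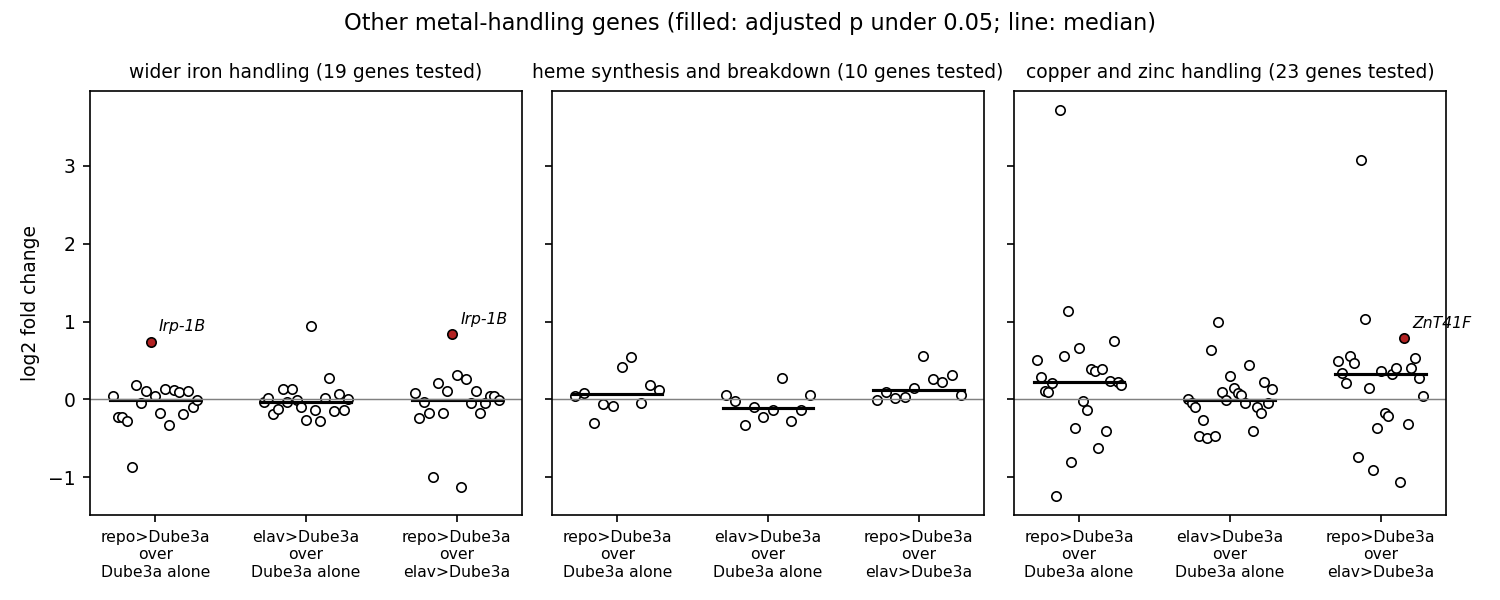
Log2 fold change (vertical axis) of 19 wider iron, 10 heme and 23 copper and zinc genes in the 3 comparisons; each point is a gene, lines are medians and filled points have an adjusted p under 0.05. Irp-1B is filled in both comparisons of the glial line and ZnT41F in glial against neuronal.

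The genes whose log2 CPM followed each member most closely over the 9 libraries were named by Pearson's r, as a description, since the points share libraries and genotypes. For Tsf1 they were the proteasome regulatory subunit gene Rpn3 (r = 0.986), the sorbitol dehydrogenase gene Sodh1 (0.975) and the retinoblastoma-family gene Rbf (0.973). Sodh1 averaged 174, 59.2 and 49.4 CPM in the glial, neuronal and control lines, and Rpn3 205, 126 and 112 CPM. For Fer1HCH they were CG9485 (0.975), the chitin-binding protein gene obst-B (0.966) and CG32354 (0.964), and for Mvl the protein disulfide isomerase gene ERp60 (0.972), the galactokinase gene Galk (0.959) and Fmo-2 (0.958). Those of Fer2LCH were the phosphatase gene MKP-4 (0.987), CG11438 (0.98) and the translation initiation factor gene eIF3c (0.979). For Tsf2 they were CG31445 (0.945), CG6216 (0.941) and IntS8 (0.935), and for Tsf3 a noncoding entry with no gene match (0.962), CG5412 (0.958) and CG13671 (0.953). No gene was among the 3 nearest of more than 1 member.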

How the data were processed

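The authors deposited raw counts per RefSeq transcript, whole numbers without scaling, in 9 columns, all used here. STAR and DESeq2 are named in the submitters' processing notes without role or version; the sources used here give no counter, build, annotation release or strand handling. Transcripts were summed per gene by RefSeq symbol (Release 6 plus ISO1 MT): 31673 of 31838 matched, and 165 stayed as entries of their own. Exon lengths (the union of a gene's annotated exons) and overlaps come from the Ensembl BDGP6 annotation. The test across genes was the quasi-likelihood test of edgeR 4.0.16 (R 4.3.3), after TMM scaling and filterByExpr (min.count 10, min.total.count 15), on all 9 libraries with group as the only term, adjusted by Benjamini-Hochberg over 11430 genes. The SE is the log2 fold change over the square root of F. Log2 CPM used a prior count of 2. There were 17 alternatives, with DESeq2 1.42.0 among them. Fits were tested on simulated data. Each gene of the list and, for other lists, up to 4 called genes of smallest p were named, or the 2 of highest CPM. The members and lists were chosen with earlier results of these data known. Fire, FLVCR, Cox15 and zetaTry were not found under those names. No sequences are shown.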

Additional observations from a re-analysis of the deposited data

Results flagged for a closer look

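Tsf1 differed between the 2 driver lines. The test of glial against neuronal, which compares the lines directly, gave 1.47 (adjusted p = 0.02 in edgeR, higher in 3 of 3 glial libraries). Its losses are named above and, for the replicate block, in the next part. Irp-1B gave 0.84 (adjusted p = 0.01) and ZnT41F 0.79 (adjusted p = 0.037) in that test, each higher in 3 of 3 glial libraries. Groups of 3 libraries are too small to check a single library as an outlier.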

How the results depend on the processing

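Tsf1 in glial against control passed in 17 of 17 alternatives, and in glial against neuronal in 13 of 17, with 1.27 to 1.6 when each library was left out in turn. Same-numbered libraries did not deviate together (correlations -0.57 to 0.37), so the numbers were not taken to pair samples. With a replicate block Tsf1 gave 1.69 (adjusted p = 0.0397) in glial against control and 1.49 (0.0621) in glial against neuronal, where the iron genes called were 0 in place of 1, and Irp-1B lost its call in glial against control (0.74, 0.0568). The sign of small differences in neuronal against control turned for Tsf1 with the gut level as covariate (-0.01), for Fer1HCH with single transcripts (-0.07) and, leaving out 1 library, between -0.01 and 0.06, for Fer2LCH between -0.12 and 0.27, and for Mvl with the gut level (-0.04), single transcripts (-0.02) and between -0.02 and 0.02. Tsf3 in glial against neuronal ran between -0.15 and 0.12. DESeq2 called 2 iron genes in glial against control and 2 in glial against neuronal, and leaving out 1 library gave 0 to 1 in glial against neuronal. Other metal genes called in glial against control were 1, but 2 with the 6 libraries alone, 6 with DESeq2, 2 with no low-count filter, 0 with library totals, 2 with single transcripts and 0 to 2 with 1 library left out. In glial against neuronal they were 2, but 1 with 6 libraries, 4 with DESeq2, 1 with the block, 0 with library totals and 0 to 2 with 1 library left out. All genes called in glial against control were 505, but 274 with 6 libraries, 1110 with DESeq2, 281 with the block, 281 with library totals, 946 with single transcripts and 181 to 447 with 1 library left out. In neuronal against control they were 81, but 470 with DESeq2, 15 with the block, 44 with library totals, 151 with single transcripts and 16 to 62 with 1 left out. In glial against neuronal they were 422, but 227 with 6 libraries, 1013 with DESeq2, 241 with the block, 243 with library totals, 850 with single transcripts and 154 to 392 with 1 left out. Single transcripts count isoforms as separate features. The cause of the other moves was not tested.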

Other observations

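The copper-binding metallothionein genes MtnA and MtnB did not pass in the main edgeR test but did in some alternatives, and MtnB was chosen after its values were seen. MtnB had 78, 46 and 63 counts in glial libraries 1, 2 and 3, while the neuronal libraries had 3, 17 and 1 counts and the control libraries 4, 8 and 0, so every glial library was above all others at a low level. In edgeR it gave 3.72 ± 1.02 in glial against control (adjusted p = 0.082) and did not pass, and in DESeq2 3.73 (0.00311). Glial against neuronal gave 3.08 in edgeR (adjusted p = 0.13) and 3.1 in DESeq2 (0.0169). DESeq2 was the 1 alternative of 17 in which MtnB passed in either comparison. MtnA had 71.7, 70.5 and 68.6 CPM in the glial libraries, 170, 75.0 and 107 CPM in the neuronal libraries and 219, 121 and 157 CPM in the control libraries, so each glial library was below all others. Its value in glial against control, -1.24 ± 0.30, missed the threshold (adjusted p = 0.053). It passed in 7 of 17 alternatives: DESeq2 (adjusted p = 0.000622), no low-count filter (0.0464), the 6 libraries compared alone (0.0394), the replicate block (0.0407), and without control library 2 (0.0462), neuronal library 1 (0.0285) or neuronal library 2 (0.0348). Glial against neuronal gave -0.74 (adjusted p = 0.23) and passed in 0 of 17. Of the other metallothionein genes MtnC was not tested. In glial against control edgeR gave 0.56 for MtnD (adjusted p = 0.81), 1.14 for MtnE (0.55) and -0.80 for MtnF (0.41), with overlapping libraries. Of all genes tested 12.0% lay apart in CPM as higher in that comparison and 12.9% as lower.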
